A study of Schizosaccharomyces pombe with 15 samples.

Results

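Deletion strains of the fission yeast Schizosaccharomyces pombe were compared directly by the 3′ ends of their U6 small nuclear RNA. Strain CAF41 lacks mpn1 (mpn1Δ) and strain CAF374 lacks rrp6 (rrp6Δ). Each was read in 1 PNK-treated library of endogenous U6, and these are 2 of the 15 samples of the series, chosen by their titles and not by any measured value. By their labels the strains carry no tagged U6; they were grown in liquid YES medium at 30 °C with shaking at 150 rpm, and their RNA was treated with polynucleotide kinase (PNK), an enzyme that takes phosphates off 3′ ends so that an adapter can be joined to them. In this 3′ RACE assay total RNA received an adapter, U6 was amplified with a primer of its own, and the PCR products were sequenced. The mpn1Δ library held 1159254 reads with an end sequence and the rrp6Δ library 705616. Each strain is represented by 1 PNK-treated library, so no test could be made between them and no p-value is given. Intervals are exact 95% binomial intervals (for means, normal 95% intervals from the reads), and as PCR copies carry no molecular identifiers they cover counting error only. A difference was called large when it reached 5 percentage points and 1.5 times for a share, or 0.5 nt for a mean length.

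U6 is the spliceosomal RNA made by RNA polymerase III, which stops in a run of Ts, so that the new transcript ends in Us. Mpn1 is the fission yeast member of the Usb1 family, 3′ exoribonucleases that trim this U run and are known from human cells and budding yeast to leave a phosphate at the end they make. Rrp6 is an exonuclease that works from the 3′ end as part of the exosome of the nucleus, the complex that processes and degrades nuclear RNA and acts on RNAs that polymerases of the TRAMP complex have tagged with short A tails.

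The sequence that the ends start from is shown first, since it tells which bases are encoded. In the ASM294v3 assembly, from RefSeq, snu6 is annotated on the minus strand of chromosome I at 2562276 to 2562419, with 2 exons around an intron. The 3′ end of exon 2, the A after it, the run of 9 Ts in capitals and the bases after the run read as follows, for chrI:2562254-2562287.
snu6 3′ end: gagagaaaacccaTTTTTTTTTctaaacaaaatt
The base after the T run is a C, so an A that directly follows the U run is not encoded there. The commonest ends of both libraries are shown next, as they carry most of the comparison. They are written in the DNA letters of the deposited lists, the U run in lower case and the A tail in capitals.
4 Us and 1 A: ttttA
5 Us and 1 A: tttttA
6 Us and 1 A: ttttttA
4 Us: tttt
5 Us: ttttt
6 Us: tttttt

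Ends of Us followed by As alone, called A-tailed here, were the main class in mpn1Δ and the smaller class in rrp6Δ. Of all reads with a sequence they held 76.5% in mpn1Δ and 39.1% in rrp6Δ, and ends of Us alone, called plain U ends, held 20.3% and 57.1%. Both classes together made up 96.8% of reads in mpn1Δ and 96.2% in rrp6Δ. Among these reads the A-tailed share was 79.0% (78.9 to 79.1) in mpn1Δ and 40.7% (40.6 to 40.8) in rrp6Δ, a large difference of 38.3 points. In wild type (wt) it was 4.69%, so both strains lay above it. Giving every distinct end with at least 2 reads the same weight, the difference was -0.263 points (-14.0 to 13.5). That setting holds 1 plain U end per run length whatever its reads, so it could not show a difference of this kind.

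Within the A-tailed reads, mpn1Δ carried longer U runs than rrp6Δ. Runs of 5 Us led in both strains, with 50.1% of A-tailed reads in mpn1Δ and 54.0% in rrp6Δ. Runs of 6 Us held 32.4% in mpn1Δ against 20.8% in rrp6Δ, and runs of 7 Us 3.68% against 1.94%. Runs of 4 Us went the other way, with 12.3% in mpn1Δ and 20.7% in rrp6Δ, and the differences at 4 and 6 Us were both large. The weight thus lay at 5 and 6 Us in mpn1Δ, and at 5 Us with nearly equal flanks at 4 and 6 Us in rrp6Δ.

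At the short end, A-tailed reads with 1 to 3 Us held 1.30% in mpn1Δ and 2.35% in rrp6Δ. The rrp6Δ share was 3.31 times that of mpn1Δ at 1 U, 2.40 times at 2 Us and 1.63 times at 3 Us, on 691, 857 and 4943 rrp6Δ reads. These are small shares in both libraries, below the limit of 5 points.

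In all, A-tailed reads with at least 6 Us made up 36.3% (36.2 to 36.4) in mpn1Δ and 22.9% (22.8 to 23.1) in rrp6Δ. This difference of 13.4 points, at a ratio of 1.59, was large. With distinct ends weighted equally this difference was 7.69 points (-9.69 to 25.1) and not large. That setting leaves read numbers out, so it does not measure shares of reads. The mean U run before the tail was 5.25 nt in mpn1Δ and 4.99 nt in rrp6Δ. Their difference of 0.263 nt stayed under the limit of 0.5 nt, and was 0.398 nt (-0.434 to 1.23) with equal weights.

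**Figure D1:**
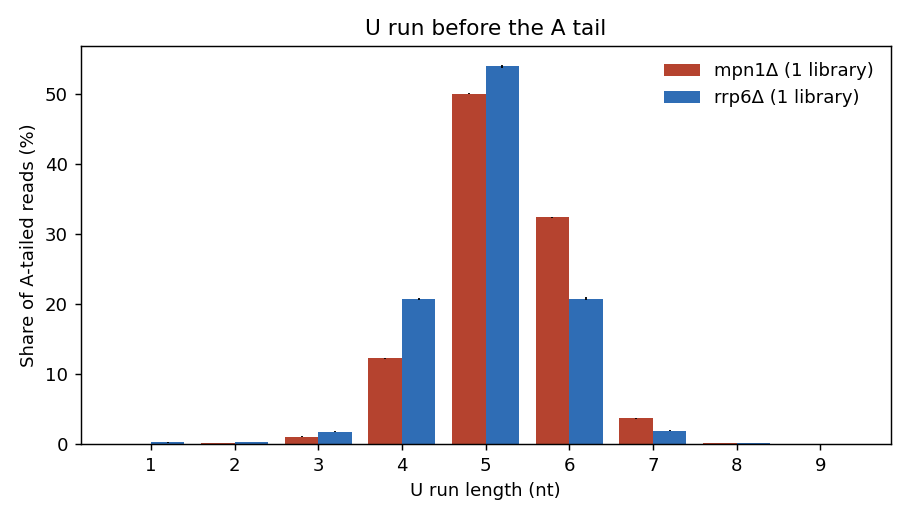
U run length before the A tail (x axis, nt) as a share of the A-tailed reads of each library (y axis, %), with bars for mpn1Δ and rrp6Δ, 1 library each, and 95% binomial intervals as error bars, which are barely visible. The bars at 6 Us stand at 32.4% and 20.8%, and those at 4 Us at 12.3% and 20.7%.

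Single ends are given next. They add up to the U run shares above, so their division by U run is not a separate result. There were 26 A-tailed ends whose reads summed to at least 100 over both libraries. Of these, 5 (19.2%) held at least 1.5 times the share of A-tailed reads in mpn1Δ, and 12 (46.2%) did so in rrp6Δ. All 5 of the former had 6 or more Us, out of 7 such ends. The 12 higher in rrp6Δ all had 4 or fewer Us, out of 14 such ends. None of the ends with 5 Us passed 1.5 times in either direction.

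The commonest A-tailed end, 5 Us and 1 A, had 406375 reads in mpn1Δ and 137998 in rrp6Δ, or 45.8% and 50.0% of A-tailed reads. The end with 6 Us and 1 A had 267456 and 53816 reads, or 30.2% and 19.5%. The end with 4 Us and 1 A had 96950 and 51526 reads, or 10.9% and 18.7%. Within A-tailed reads the 5-U end was thus of similar weight in both strains, while its neighbours differed in opposite directions. Of all reads with a sequence, the ends with 4, 5 and 6 Us and 1 A held 8.36%, 35.1% and 23.1% in mpn1Δ. In rrp6Δ they held 7.30%, 19.6% and 7.63%.

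The 3 ends furthest apart in ratio each way were all rarer, and are shown next. Those higher in mpn1Δ had 6 or 7 Us, and those higher in rrp6Δ 1 to 3 Us. The end with 8 Us and 1 A was at 1.32 times in mpn1Δ and is not among them.
7 Us and 2 As: tttttttAA
6 Us and 3 As: ttttttAAA
7 Us and 1 A: tttttttA
1 U and 4 As: tAAAA
2 Us and 2 As: ttAA
3 Us and 3 As: tttAAA
Relative to rrp6Δ, the share of A-tailed reads in mpn1Δ was 2.17 times for 7 Us and 2 As, 1.89 times for 6 Us and 3 As and 1.88 times for 7 Us and 1 A. In the other direction, the share in rrp6Δ was 6.15 times that in mpn1Δ for 1 U and 4 As, on 113 and 59 reads. It was 4.12 times for 2 Us and 2 As, on 68 and 53 reads, and 3.04 times for 3 Us and 3 As, on 182 and 192 reads. The last 3 ends each held under 0.1% of A-tailed reads in both libraries, and were picked by these same ratios. Of all reads with a sequence, they held 0.0160%, 0.00964% and 0.0258% in rrp6Δ and 0.00509%, 0.00457% and 0.0166% in mpn1Δ. The order was kept on that scale, with smaller ratios. The 3 ends higher in mpn1Δ held 0.138%, 0.119% and 2.67% of all reads there, and 0.0326%, 0.0322% and 0.725% in rrp6Δ.

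In contrast to the U runs, the A tails were short in both strains and of similar length. A tail of 1 A was carried by 91.8% of A-tailed reads in mpn1Δ and 92.1% in rrp6Δ, and the mean tail was 1.09 nt in each. Tails of at least 2 As held 8.22% (8.16 to 8.28) in mpn1Δ and 7.87% (7.77 to 7.97) in rrp6Δ. This difference of 0.345 points was far under the limit, and was 0.0619 points when ends with further bases after the As were also counted as A-tailed. It was -2.11 points (-17.2 to 12.9) when distinct ends were weighted equally, an interval that spans both directions. To turn one distribution into the other, 0.550% of reads would have to change tail length, against 13.4% that would have to change U run.

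Scaled to A-tailed reads, the longest tails were rarer in mpn1Δ. As the A-tailed class held 76.5% of reads in mpn1Δ and 39.1% in rrp6Δ, these are not shares of all reads. Tails of at least 3 As held 0.747% of A-tailed reads in mpn1Δ and 0.953% in rrp6Δ. Tails of at least 4 As held 0.145% (0.137 to 0.153) against 0.286% (0.267 to 0.307), which is 1.97 times as much in rrp6Δ. For at least 6 As the shares were 0.0151% and 0.0406%, on 134 and 112 reads, and for at least 8 As 0.00214% and 0.0159%, on 19 and 44 reads. The longest tail was 12 As in both libraries. All these differences were under the 5-point limit for a share, and the last rest on few reads. With only U runs of at least 3 Us, tails of at least 4 As held 0.128% in mpn1Δ and 0.199% in rrp6Δ, a smaller difference.

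**Figure D2:**
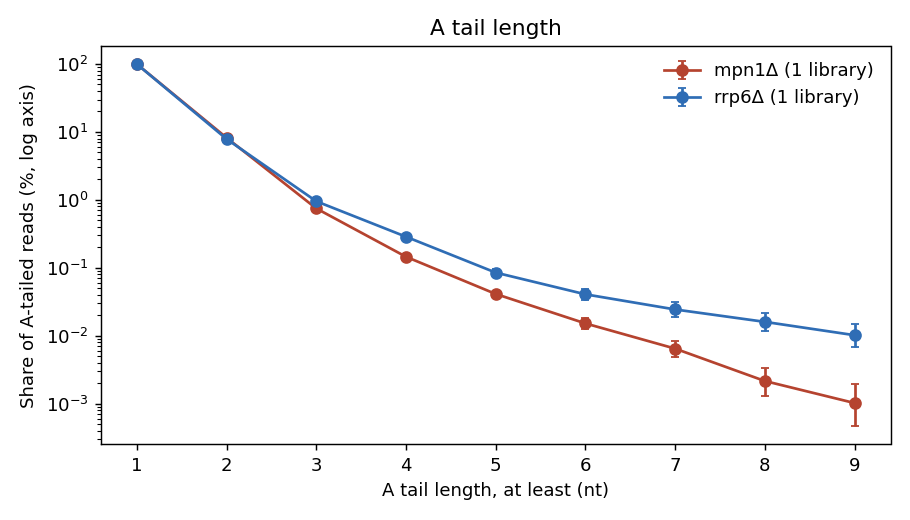
Share of A-tailed reads with a tail of at least the given length (y axis, %, log axis) against A tail length (x axis, nt) in mpn1Δ and rrp6Δ, 1 library each, with 95% binomial intervals. The lines lie together at 8.22% and 7.87% for at least 2 As and part to 0.00214% and 0.0159% for at least 8 As.

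Tail length was tied to the U run in the same direction in both strains: the shorter the U run, the more reads had long tails. In mpn1Δ, tails of at least 2 As held 29.4% of A-tailed reads with 1 U, 12.3% with 3 Us, 8.47% with 5 Us and 6.97% with 6 Us. In rrp6Δ the same shares were 38.4%, 12.2%, 7.46% and 6.38%. At 4 to 6 Us the share was slightly higher in mpn1Δ, and at 1 and 2 Us it was higher in rrp6Δ.

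Tails of at least 3 As differed beyond counting error on 1 and 3 Us, and their intervals overlapped on 2 Us and on 4 to 8 Us. On 5 Us they held 0.737% of A-tailed reads in mpn1Δ and 0.738% in rrp6Δ. On 1 U they held 19.9% (16.9 to 23.1) and 30.4% (27.0 to 34.0), on 670 and 691 reads. Among reads with at least 4 As, 21.9% (19.7 to 24.3) sat on 1 to 3 Us in mpn1Δ and 42.9% (39.4 to 46.4) in rrp6Δ. The mean U run of these reads was 4.31 nt in mpn1Δ and 3.48 nt in rrp6Δ, against 5.27 and 5.01 nt for reads with 1 A.

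In the PNK-treated libraries, plain U ends differed more between the strains than A-tailed ends did. They also differed with PNK in rrp6Δ, as given below. In rrp6Δ the 5-U end held 49.2% (49.0 to 49.4) of plain U reads and the 6-U end 18.4% (18.3 to 18.5). In mpn1Δ the 6-U end was the commonest, at 31.5% (31.3 to 31.7), and the 5-U end held 27.1% (27.0 to 27.3). The 5-U end was therefore 22.1 points lower in mpn1Δ and the 6-U end 13.1 points higher, and both differences were large. The ratio of 6-U to 5-U reads was 1.16 in mpn1Δ and 0.374 in rrp6Δ.

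Within plain U reads, the longer ends were also weightier in mpn1Δ. The 7-U end held 5.93% against 2.29% in rrp6Δ, and the 8-U end 0.902% against 0.307%. Of 9 plain U ends with at least 100 reads, 4 (44.4%) held at least 1.5 times the share in mpn1Δ, namely those with 6 to 9 Us, and 1 (11.1%) did so in rrp6Δ, the 5-U end. Ends with at least 6 Us together held 38.4% in mpn1Δ and 21.0% in rrp6Δ, a large difference of 17.4 points. Of all reads with a sequence, the 5-U end held 5.51% in mpn1Δ and 28.1% in rrp6Δ, and the 6-U end 6.39% and 10.5%. On that scale the 7-U end held 1.21% and 1.31%, the 8-U end 0.183% and 0.175%, and the 9-U end 0.0116% and 0.0139%.

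The shorter plain U ends were more alike. The 4-U end held 10.5% of plain U reads in mpn1Δ and 9.70% in rrp6Δ, and ends with 1 to 3 Us held 24.0% and 20.1%. Within its plain U reads, mpn1Δ thus held more of both the longest and the shortest ends. Of all reads with a sequence, the ends of 1, 2 and 3 Us held 1.98%, 1.56% and 1.33% in mpn1Δ. In rrp6Δ they held more, at 4.95%, 3.77% and 2.73%. Within plain U reads the mean U run hid the difference, at 4.61 nt in mpn1Δ and 4.50 nt in rrp6Δ. The difference in means was 0.105 nt, and 0.220 nt when runs under 3 Us were left out. With equal weights it was 0, as both libraries then held each length from 1 to 12 Us once. In each library the A-tailed reads had a longer mean U run than the plain ones, by 0.645 nt in mpn1Δ and 0.487 nt in rrp6Δ.

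**Figure D3:**
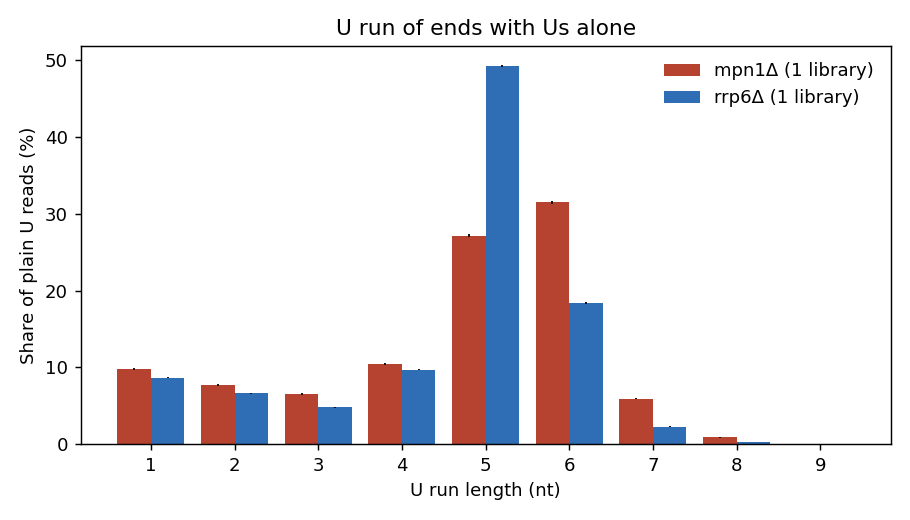
U run length of plain U ends (x axis, nt) as a share of the plain U reads of each library (y axis, %) in mpn1Δ and rrp6Δ, 1 library each, with 95% binomial intervals. The 5-U bars stand at 27.1% and 49.2% and the 6-U bars at 31.5% and 18.4%, while those at 1 to 4 Us differ by at most 1.78 points.

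The share of reads with an A tail was then taken at each U run length, which removes differences in how often each length occurs. It was higher in mpn1Δ at all 9 lengths from 1 to 9 Us, and the difference was large at 6 of them. At 5 Us, 87.4% (87.3 to 87.5) of mpn1Δ reads and 43.0% (42.8 to 43.1) of rrp6Δ reads had a tail. At 6 Us the shares were 79.5% and 43.7%, at 7 Us 70.0% and 36.8%, and at 8 Us 46.4% and 25.5%. At 3 Us they were 38.7% and 20.4%, and at 9 Us, on 174 and 107 reads, 23.0% and 8.41%.

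At 4 Us the share was 81.5% in mpn1Δ and 59.4% in rrp6Δ, a difference of 22.1 points at a ratio of 1.37, which is below the limit of 1.5 times. At 1 and 2 Us few reads had a tail in either strain, with 2.83% and 5.95% in mpn1Δ and 1.94% and 3.12% in rrp6Δ. The share thus peaked at 5 Us in mpn1Δ and at 4 Us in rrp6Δ, with a dip in rrp6Δ from 4 to 5 Us that mpn1Δ did not have. In wt it was 18.7% at 4 Us and 2.48% at 5 Us. It fell from 6 to 9 Us in both. Under equal weights for distinct ends, which fix these shares in the way given above, none of the differences was large.

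Put as A-tailed reads per plain U read, the strains were furthest apart at 5 Us. There were 6.95 A-tailed reads per plain one in mpn1Δ and 0.753 in rrp6Δ, a ratio of 9.22. This ratio was 4.02 at 7 Us, 3.02 at 4 Us and 1.48 at 1 U, and at 6 Us it lay between those at 5 and 7 Us.

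The overall difference in A-tailed share of 38.3 points divides arithmetically into 35.3 points from the shares at each U run length and 3.01 points from how often each length occurred. With the U run lengths of rrp6Δ and the A-tailed shares of mpn1Δ, the overall share would be 75.1%. With the U run lengths of mpn1Δ and the shares of rrp6Δ it would be 42.8%. Counting both classes together, 5-U runs held 45.3% of reads in mpn1Δ and 51.2% in rrp6Δ, and 6-U runs 32.2% and 19.4%.

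**Figure D4:**
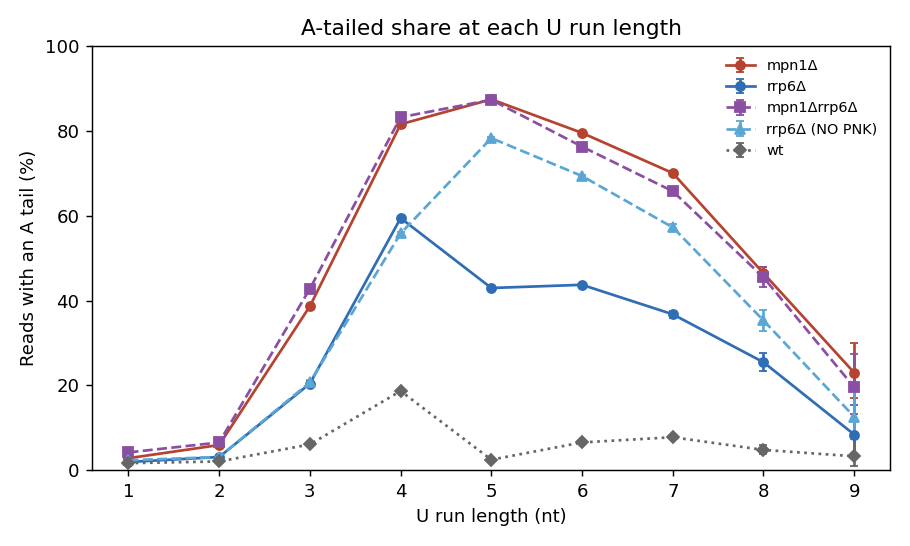
Percentage of reads with an A tail (y axis) at each U run length (x axis, nt), out of A-tailed and plain U reads of that length, with 95% binomial intervals. The solid lines are mpn1Δ and rrp6Δ, at 87.4% and 43.0% for 5 Us, the dashed lines are mpn1Δrrp6Δ and rrp6Δ without PNK, at 87.3% and 78.3%, and the dotted line is wt, at 2.48%.

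Other libraries of the series are given beside these values, but none is a replicate of the PNK-treated mpn1Δ or rrp6Δ library. A second library of the rrp6Δ strain, made without PNK, had nearly the same U runs before the A tail, with 22.9% at 6 or more Us. It differed from the PNK-treated one by at most 0.274 points at any U run length, and whether it came from a separate culture was not established. Its plain U ends did not match: the 5-U end held 20.7% of plain U reads without PNK and 49.2% with it. The 27.1% of PNK-treated mpn1Δ lay between these values. Between the rrp6Δ libraries 34.5% of plain U reads would have to change U run, against 22.1% between the PNK-treated strains. The A-tailed share in rrp6Δ without PNK was 78.3% at 5 Us, 69.3% at 6 Us and 55.8% at 4 Us, and the dip at 5 Us was not seen there. The series has no library of mpn1Δ made without PNK, so the part of PNK in the difference between the strains was not tested.

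The strain lacking both genes, mpn1Δrrp6Δ, had U runs before the A tail near those of rrp6Δ and A-tailed shares near those of mpn1Δ. Its A-tailed reads held 23.0% with 6 or more Us, against 22.9% in rrp6Δ and 36.3% in mpn1Δ. Its A-tailed share was 79.0% overall and 87.3% at 5 Us, 76.3% at 6 Us and 83.2% at 4 Us. Its tails of at least 3 As, at 0.977%, were near the 0.953% of rrp6Δ. Among its plain U ends the values lay between those of mpn1Δ and rrp6Δ at 5 Us, with 30.9%, and at 6 Us, with 24.4%. They lay above both at 4 Us, with 14.2%, and at 1 to 3 Us, with 25.8%.

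The longer U runs before the tail were not seen to the same degree in every library without mpn1, and 1 tagged strain with mpn1 had them too. In 4 libraries without mpn1 and with rrp6, A-tailed reads with 6 or more Us held 24.8% in cid14Δmpn1Δ, which also lacks the TRAMP poly(A) polymerase Cid14, 36.3% in mpn1Δ, and 41.1% and 42.9% in endogenous U6 of mpn1Δ tU6wt and mpn1Δ tU6-C36A, strains with a tagged U6. The highest value of the series, 44.7%, was that of endogenous U6 in tU6-wt, which has mpn1. In the untagged PNK-treated libraries with both genes it ran from 7.93% in cid11Δ to 23.5% in cid14Δ, with 21.9% in wt. The lists of the 4 tagged strains hold few ends of 4 nt: the 4-U end made up at most 0.0385% of their reads, against 2.12% in mpn1Δ and 5.53% in rrp6Δ.

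Among PNK-treated libraries, rrp6Δ lay between strains with and without mpn1 in the ratio of 6-U to 5-U plain ends. The ratio of 6-U to 5-U plain reads in rrp6Δ, 0.374, lay above the 7 PNK-treated libraries with both mpn1 and rrp6, at 0.0729 to 0.233, and below the 4 libraries without mpn1 and with rrp6, at 0.532 to 1.16. Without PNK this order did not hold. The ratio was then 0.614 in rrp6Δ and 0.609 in wt, both within the range of the strains without mpn1. The mean U run of plain U ends did not give this order with PNK either. At 4.50 nt, rrp6Δ lay within both sets, at 4.06 to 5.12 nt with mpn1 and 3.98 to 5.53 nt without. The overall A-tailed share of rrp6Δ, 40.7%, lay between 2.10% to 5.65% and 63.7% to 79.0% in the same PNK-treated sets, and was 58.0% in rrp6Δ without PNK.

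**Figure D5:**
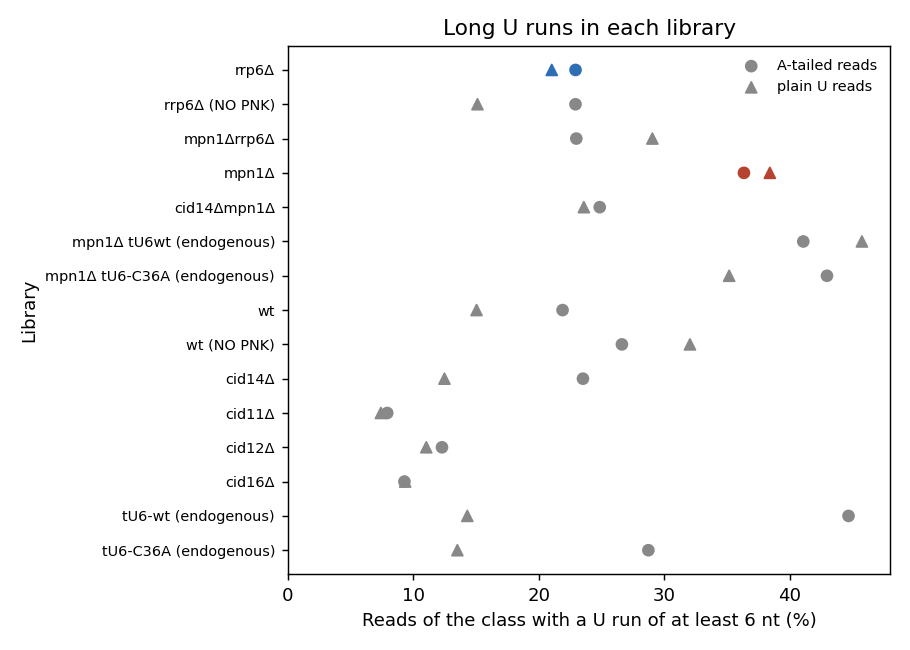
Percentage of reads with a U run of at least 6 nt (x axis) among A-tailed reads (circles) and plain U reads (triangles) in each library (y axis), with mpn1Δ in red, rrp6Δ in blue and all others in grey. The circles of the 3 rrp6-deleted libraries lie between 22.9% and 23.0%, and those of the 4 libraries that lack mpn1 but not rrp6 between 24.8% and 42.9%. Of the 7 PNK-treated libraries with both genes, which span 7.93% to 44.7%, wt lies at 21.9% and cid14Δ at 23.5%.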

How the data were processed

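The deposited files hold raw read counts: each line pairs a read number with an end, written as the bases past the constant part of U6. Per the submitters' processing notes, CASAVA 1.8.2 and cutadapt were used, in roles the notes do not state. How reads were filtered, and on which build, is not given in the sources used here. Per the labels' protocols, 3 µg of RNA were ligated to 120 pmol of adapter. Amplification and ligation can favour some ends, so shares describe the sequenced products.

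A line with no sequence, 0.998% of reads in mpn1Δ and 2.20% in rrp6Δ, was left out. Reads whose end held an N numbered 0 and 1. A count of 0 allowed a share of up to 0.000338% and 0.00109% of A-tailed reads (3 counts). Groups came from the sample titles. Files of tagged U6 were not used. Distributions were scaled to the reads of their class. The counting of classes was run on ends simulated from the counts of these libraries. That checks the code only, and cannot show that real ends are assigned correctly. Named ends were the 3 commonest of each class and library and the 3 A-tailed ends with the largest ratio each way. Members, lists and limits were chosen with earlier results of these data known. Alternatives changed the reads per end, the weight of an end, the limits of the U run and the definition of a tail. Scripts ran in Python 3.11.15 with SciPy 1.17.1 for intervals, NumPy 2.4.6, and Matplotlib 3.10.9 for figures.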

Additional observations from a re-analysis of the deposited data

How the results depend on the processing

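Of 146 recomputed values, 5 had the opposite direction to the reported difference between mpn1Δ and rrp6Δ. All 5 came from counting each distinct end with at least 2 reads once, a setting that holds 1 plain U end per run length in any deep library and so could not show a difference in shares of reads. There the differences were -0.263 points in A-tailed share, -2.11 points in tails of at least 2 As, and -2.02, -3.17 and -2.02 points in the A-tailed share at 1, 2 and 5 Us. The same setting gave 0 lengths with a large difference in place of 6, a difference of 7.69 points in A-tailed reads with at least 6 Us, 0.398 nt in their mean U run and 0 nt in that of plain U reads. Single ends have no share under it and were not recomputed. With runs of at least 3 Us the difference in A-tailed share was 37.4 points, in the mean U run of A-tailed reads 0.251 nt and of plain U reads 0.220 nt. With further bases allowed after the As the A-tailed share differed by 37.9 points, the mean U run of A-tailed reads by 0.274 nt and tails of at least 2 As by 0.0619 points. With tails of exactly 1 A the A-tailed share differed by 38.8 points. Leaving out ends under 10 reads, or runs over 8 Us, moved none of the main values beyond counting error. No paired analysis was possible because each strain has 1 PNK-treated library. With 1 such library per strain the spread between cultures is unknown, and depth limits only the rarest ends, such as runs of 9 Us and tails of 8 or more As.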

Other observations

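Ends outside both classes held 3.22% of reads in mpn1Δ and 3.83% in rrp6Δ, and the kinds given here were chosen after their values were seen. Us followed by C and A held 0.170% (0.163 to 0.178) of reads in mpn1Δ and 0.503% (0.487 to 0.520) in rrp6Δ, which is 2.96 times as much. Among them the end with 5 Us, tttttCA with the added bases in capitals, had 716 reads in mpn1Δ and 1488 in rrp6Δ. Us followed by a C alone held 0.194% and 0.307%. With an A between the Us and the C, the order was the other way: Us, A, C and A held 0.318% in mpn1Δ and 0.226% in rrp6Δ, and Us, A and C held 0.256% and 0.161%. Us, As and then Us again held 0.336% in mpn1Δ and 0.266% in rrp6Δ. These are shares of all reads with a sequence and were not scaled to a class. Plain U ends held 20.3% of those reads in mpn1Δ and 57.1% in rrp6Δ, and A-tailed ends 76.5% and 39.1%. Whether the order would hold per plain U or per A-tailed read was not tested. The adapter given in the labels begins with C, and a final C could not be assigned to U6 or to the adapter.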
